A study of Mus musculus with 8 samples.

Results

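5-hydroxymethylcytosine (5hmC) was described over the genes of voltage-gated and potassium ion channels. The members were chosen by symbol, as protein-coding genes of the GENCODE M1 annotation (mm9) whose symbol begins with Kcn and a further letter, with Scn, a number and a, or with Cacna and a number. 2 matching genes were left out by the rule, and 116 of 22367 protein-coding genes remained. They were 39 voltage-gated potassium (Kv) alpha subunits, 12 Kv auxiliary subunits, 12 calcium- or sodium-activated potassium channel genes, 15 inward rectifiers, 13 two-pore domain potassium channels, 10 sodium channel alpha subunits, 10 calcium channel alpha1 and 4 alpha2delta subunits, and Kcnrg, which regulates Kv channel assembly. The genes were long, with a median span of 44.32 kb against 15.43 kb for all protein-coding genes, and ranged from 0.705 kb, a short annotated entry of Kcng2, to 1135 kb in Kcnip4, an auxiliary subunit of Kv4 channels.

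Ion channels of these families carry the currents of excitable cells. Sodium channel alpha subunits open on depolarisation and carry the upstroke of the action potential, calcium channel alpha1 subunits form the pore through which calcium enters, and Kv channels repolarise the membrane. Inward rectifier and two-pore domain channels set the resting potential in neurons, glia, muscle and secretory cells, and calcium-activated potassium channels couple calcium entry to repolarisation. 5hmC is made from 5-methylcytosine by the Tet enzymes and lies mostly at CpG dinucleotides.

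The study mapped 5hmC by GLIB-Seq, in which each 5hmC is glucosylated, oxidised with periodate and biotinylated so that the fragment can be pulled down and sequenced. There was 1 library for each of 6 conditions: the E14 line of mouse embryonic stem cells (ESCs), embryonic fibroblasts (MEFs) of C57BL/6 mice at embryonic day 11 by the sample labels (a later day in the methods), adult brain and adult liver of C57BL/6 mice at 8 weeks, and E14 cells transfected with shGFP or with shSuz12. The shSuz12 hairpin targets Suz12, a subunit of the Polycomb repressive complex 2, and shGFP is its control. Brain and liver were whole tissues, so that more cells with 5hmC and more 5hmC per cell cannot be told apart. Transcript levels were not analysed here, and neither the knockdown nor the expression of the channels was checked.

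The deposited peak lists held 130408 to 217025 nuclear peaks that covered 83.54 Mb (shSuz12) to 207.9 Mb (MEF). The lowest peak score was 80 in ESC and liver, 50.02 in shGFP, 30.34 in shSuz12 and 30 in MEF and brain, and 33202 brain peaks reached 80. Sequencing depth is unknown, as peak lists hold no counts of reads. With 1 library per condition there is no spread between replicates and no test between libraries, and the 95% intervals given for shares are exact (Clopper-Pearson) and cover counting error only. Peaks over cell type genes cannot name a cell type: of 5 genes of hepatocytes, liver peaks covered 42.2% of Apob and 24.9% of Cps1 but 0% of Alb, Ttr and Tat.

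To show what the peaks looked like in sequence, the central 200 bp of single peaks are given on the gene's strand of mm9, with CpG dinucleotides in capitals. The first 3 are brain peaks in introns of genes that were higher in brain by the rule given below. They were picked by score among the brain peaks there that overlapped no peak of ESC, MEF or liver. Kcnd3 encodes the Kv4.3 subunit of transient A-type currents (chr3:105313483-105313682, plus strand), Kcnk13 a two-pore domain channel of microglia (chr12:101258709-101258908, plus strand) and Kcnmb1 the beta1 subunit of the large-conductance calcium-activated channel (chr11:33868061-33868260, plus strand). They held 0, 1 and 1 CpGs. A further peak picked in the same way, in an intron of Kcna6, held 4 CpGs, and its sequence is not printed.
Kcnd3: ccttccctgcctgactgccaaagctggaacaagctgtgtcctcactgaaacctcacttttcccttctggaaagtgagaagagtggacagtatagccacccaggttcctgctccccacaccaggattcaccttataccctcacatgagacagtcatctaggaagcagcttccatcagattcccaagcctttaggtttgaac
Kcnk13: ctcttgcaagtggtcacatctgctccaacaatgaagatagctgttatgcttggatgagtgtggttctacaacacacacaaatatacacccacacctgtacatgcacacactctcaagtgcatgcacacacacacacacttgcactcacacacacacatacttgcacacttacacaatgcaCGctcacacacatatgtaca
Kcnmb1: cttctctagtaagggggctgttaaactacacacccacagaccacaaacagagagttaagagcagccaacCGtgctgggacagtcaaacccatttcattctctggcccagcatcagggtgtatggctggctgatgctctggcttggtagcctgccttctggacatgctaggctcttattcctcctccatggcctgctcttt

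The next 3 are ESC peaks near the start of genes without a peak there in MEF, brain or liver. They lay upstream of Kcng1, a modifying Kv subunit (chr2:168107437-168107636, minus strand), upstream of Kcnj5, a G protein-gated inward rectifier of the atrium (chr9:32152316-32152515, minus strand), and in the coding exon of Kcnj11, the pore of the ATP-sensitive potassium channel (chr7:53354445-53354644, minus strand). They held 3, 13 and 10 CpGs.
Kcng1: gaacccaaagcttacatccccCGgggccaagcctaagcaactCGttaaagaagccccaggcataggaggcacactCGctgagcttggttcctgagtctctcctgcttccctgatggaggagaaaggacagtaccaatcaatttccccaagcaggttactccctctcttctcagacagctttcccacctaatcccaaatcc
Kcnj5: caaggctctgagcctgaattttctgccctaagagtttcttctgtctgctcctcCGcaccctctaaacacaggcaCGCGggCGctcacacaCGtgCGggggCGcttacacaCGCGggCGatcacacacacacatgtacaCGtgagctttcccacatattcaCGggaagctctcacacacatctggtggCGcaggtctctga
Kcnj11: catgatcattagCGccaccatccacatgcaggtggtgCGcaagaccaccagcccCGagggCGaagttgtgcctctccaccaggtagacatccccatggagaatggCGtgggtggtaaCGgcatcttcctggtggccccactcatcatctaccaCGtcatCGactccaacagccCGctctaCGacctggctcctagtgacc

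The last pair are liver peaks, from a coding exon of Kcnj8, the pore of the vascular ATP-sensitive channel (chr6:142514345-142514544, minus strand), and from an intron of Kcnk5, an acid-sensitive two-pore domain channel (chr14:20967816-20968015, minus strand). They held 9 and 4 CpGs, and both genes were among the few with wide liver coverage.
Kcnj8: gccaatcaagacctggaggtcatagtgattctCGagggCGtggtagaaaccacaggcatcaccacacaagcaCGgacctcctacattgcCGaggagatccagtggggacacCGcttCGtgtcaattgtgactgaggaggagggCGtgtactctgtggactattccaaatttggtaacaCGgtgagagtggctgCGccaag
Kcnk5: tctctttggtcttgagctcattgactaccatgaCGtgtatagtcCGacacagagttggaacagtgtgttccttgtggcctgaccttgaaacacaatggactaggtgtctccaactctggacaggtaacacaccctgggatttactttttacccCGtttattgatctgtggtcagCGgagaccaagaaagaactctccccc

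Over all peaks, the central 200 bp of ESC peaks in channel genes held 5.03 CpGs on average, against 4.67 for the ESC peaks of all genes. The means were 3.83 against 3.76 in MEF, 3.55 against 3.52 in brain and 4.25 against 3.44 in liver.

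Of the whole peak lists, brain gave the largest share to the channel genes and liver the smallest. The spans of the members, 14.09 Mb in union or 1.42% of all gene spans, held 1187 brain peaks, 0.754% of that list (95% interval 0.711 to 0.798%). They held 1330 MEF peaks (0.613%, 0.58 to 0.647%), 1000 ESC peaks (0.582%, 0.546 to 0.619%) and 240 liver peaks (0.184%, 0.162 to 0.209%). In the transfected ESCs the share was 0.517% (687 peaks) in shGFP and 0.542% (752 peaks) in shSuz12. The intervals of brain and liver overlapped with none of the other cell types, whereas those of ESC and MEF overlapped each other. Taken over the peaks that lay in genes, however, brain did not lead, with 1.10% (1.04 to 1.17%) against 1.11% in MEF (1.05 to 1.17%), 0.936% in ESC (0.879 to 0.995%) and 0.256% in liver (0.225 to 0.291%). When only scores of at least 80 were used, the brain share was 0.642% and the MEF share 0.509%, and with members of at most 100 kb the order of ESC and brain was reversed, with 0.297% in ESC and 0.241% in brain.

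By bp, peaks covered 10.2% of the channel spans in brain, 8.42% in MEF, 8.00% in ESC and 1.88% in liver. The same peaks covered 13.9, 11.8, 11.6 and 12.8% of all gene spans, so that channel genes were covered at 0.735, 0.711 and 0.691 times the level of all genes in brain, MEF and ESC but at 0.147 times in liver. The median channel gene was covered to 15.1% of its span in ESC, 7.91% in MEF, 12.3% in brain and 0% in liver, against 8.77, 4.43, 6.43 and 4.44% for the median of all genes. Scaled to the bp of each list, the highest of the 4 cell types was ESC in 56, brain in 32, MEF in 21 and liver in 4 of the 113 members with a peak. Over all genes it was ESC in 32.5%, brain in 14.2%, MEF in 11.9% and liver in 41.4%.

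**Figure D1:**
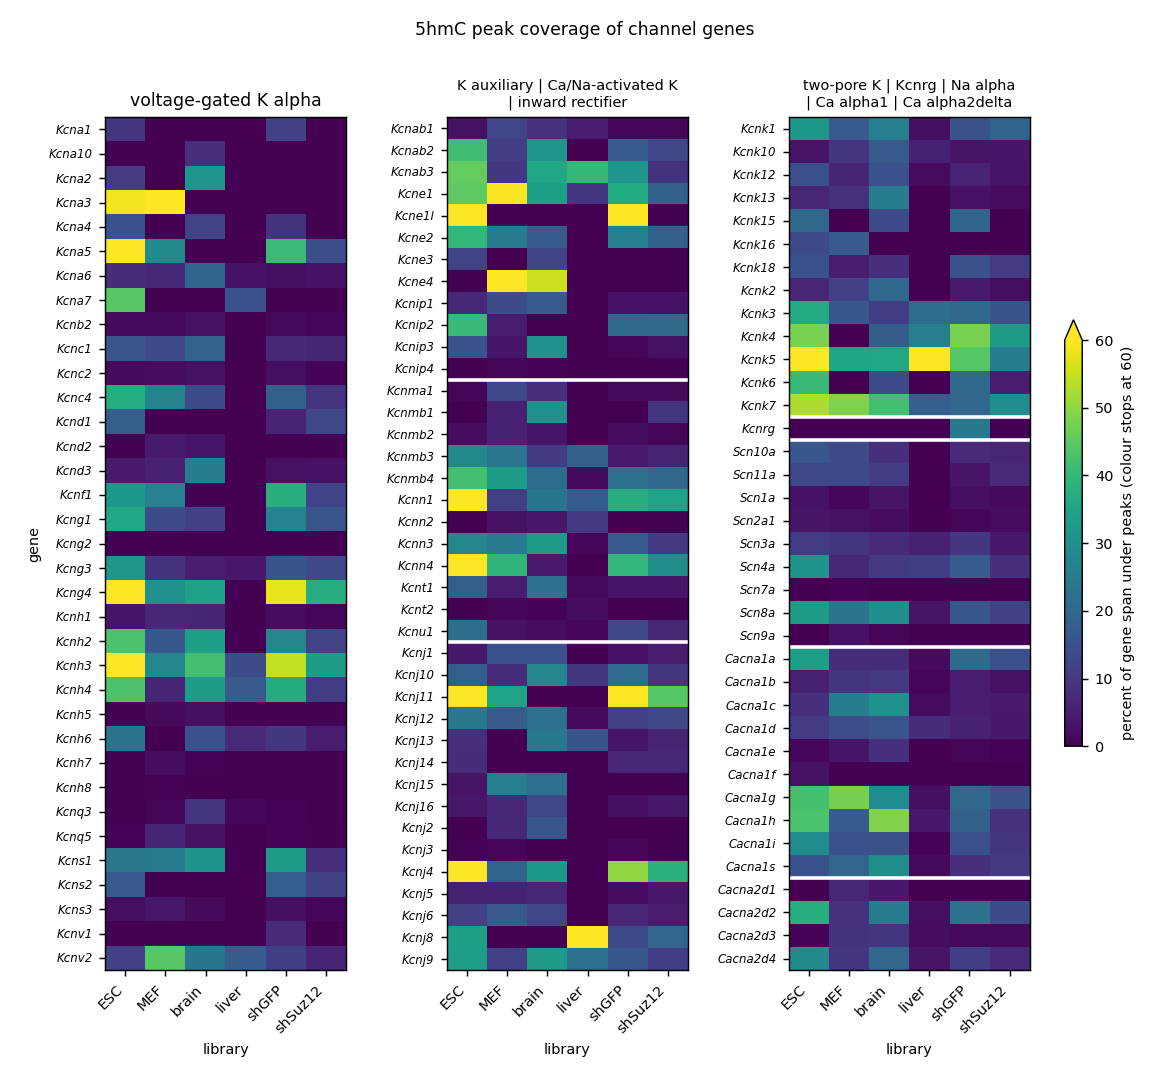
Percent of the gene span under 5hmC peaks for 111 of the channel genes (rows, by family, white lines between families) in each of the 6 libraries (columns). The liver column is dark in most rows, and Kcnk5 and Kcnj8 stand out in it at 71.0% and 61.2%.

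By family, the two-pore domain channels had the highest values in brain and liver and, apart from Kcnrg, the Kv alpha subunits the lowest. Peaks covered 20.0% of the two-pore domain spans in brain, 15.7% in ESC, 11.9% in MEF and 8.26% in liver, and 7.22, 5.09, 4.90 and 0.778% of the Kv alpha spans. Kcnk5 carried much of the liver value of the two-pore domain channels, and without it they had 18.8% in brain, no longer the highest, and 3.55% in liver. Calcium channel alpha1 genes had 19% in brain, 15.8% in MEF, 13.6% in ESC and 2.69% in liver, and inward rectifiers 12.2, 11.4, 11.0 and 1.57%. The auxiliary Kv subunits had 7.47, 5.99, 5.26 and 0.930%, and the alpha2delta subunits 9.74, 8.18, 5.84 and 1.57%. Liver was the lowest of the 4 in each of these families, also in the calcium- or sodium-activated channels with 3.01%, where 40 of the 62 liver peaks lay in Kcnn2 and the value without it was 1.11%.

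Single genes reached far above these levels. In ESC, 39 members had peaks over more than 30% of their span, in brain 21, in MEF 12 and in liver 3, which were Kcnk5, Kcnj8 and Kcnab3, a beta subunit of Kv channels. The same count over all genes was not made, and the lists differ in lowest score and in bp covered. These counts therefore describe the members alone and cannot be read as a trait of channel genes. Kcnj8 had 61.2% in liver, 34.0% in ESC and 0% in MEF and brain, and Kcnk5 had 71.0% in liver, 64.6% in ESC, 35.9% in brain and 35.2% in MEF. Kcne4, a small auxiliary subunit, was the most covered member in MEF and in brain, with 94.0% and 55.5%, and had no peak in ESC or liver. In ESC the most covered member was Kcnj11, with 82.9% against 34.8% in MEF and 0% in brain and liver. The small-conductance channel gene Kcnn1 had 78.5% in ESC, 23.3% in brain, 17.5% in liver and 11.4% in MEF, and Kcnj4, an inward rectifier of forebrain neurons, had 74.7, 32.1, 0 and 19.3%. These genes spanned 3.075 to 41.73 kb. On the shortest, few peaks covered much of the span, such as 2 ESC peaks on Kcnj11, whereas Kcnk5 held 14 ESC and 9 liver peaks.

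Gene length separated the members in ESC more than in brain. In the 41 members of up to 20 kb, ESC peaks covered 32.0% of the span, against 23.0% in all genes of that length. In the 37 members over 100 kb they covered 4.26%, against 7.66%. In brain the same classes had 16.9 against 15.6% and 8.12 against 12.9%, and in the 38 members of 20 to 100 kb brain covered 21.5 against 15.4%. Short and middle-sized channel genes were thus covered above the level of their length class in ESC, MEF and brain, and long ones below it. In liver the members lay below it in every class, with 8.84 against 21.4%, 3.69 against 17.7% and 1.36 against 9.06%.

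**Figure D2:**
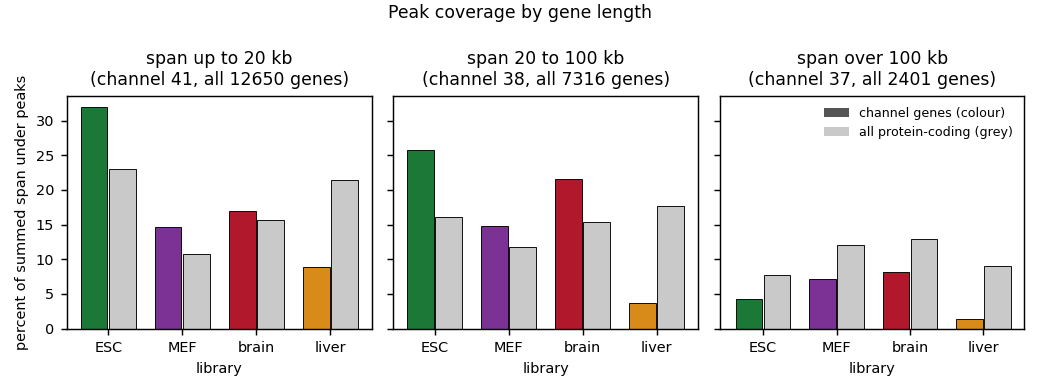
Percent of the summed gene span under peaks (y axis) in ESC, MEF, brain and liver for channel genes (coloured bars) and all protein-coding genes (grey bars), by gene length. The liver bar of the channel genes is the lowest in each panel, from 8.84% in short genes to 1.36% in long ones.

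Brain against the other cell types was read gene by gene with a fixed fold, as no test was possible. A gene was called higher in brain when the bp covered in its span, divided by the bp of the list, was at least 2 times that of ESC, of MEF and of liver, and genes with at least 1000 bp covered in 1 of the 4 entered. Of 107 members that entered, 10 were higher in brain (9.35%, 95% interval 4.57 to 16.5%), against a background of 2.81% of all genes. They were Kcna2, Kcna6, Kcna10, Kcnd3 and Kcnq3 among the Kv alpha subunits, Kcnj2 and Kcnj16 among the inward rectifiers, Kcnk13, Kcnmb1 and Cacna1e. Of these, Kcna2, Kcna10, Kcnj2 and Kcnmb1 entered through brain alone, with less than 1000 bp in each of ESC, MEF and liver. For them entry and call rest on the same brain peaks. By length the counts were 4 of 34, 3 of 37 and 3 of 36 members, from short to long, against 2.03, 2.68 and 5.55% of all genes of those lengths. With scores of at least 80 alone, 11 of 101 members were called against 5.93% of all genes, and 5 of them were among the 10. A gene with its highest scaled value in liver cannot be called higher in brain. Liver was highest in 3.54% of the members with a peak, against 41.4% of all genes with a peak. The excess of calls over the background is therefore not independent of the low liver coverage of the members. How much of the excess follows from it was not tested.

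Among Kv alpha subunits, Kcnd3 (chr3:105255248-105476920, plus strand) carried the most brain peaks. Peaks covered 25.4% of its span in brain, 5.47% in MEF, 4.26% in ESC, 2.85% in shSuz12, 2.67% in shGFP and 0% in liver. It held 43 brain peaks against 15 in MEF and 11 in ESC, and 32 of the 43 overlapped no peak of the other 3 cell types. The peaks were spread from 7 to 210.7 kb downstream of the transcription start site (TSS), and none lay within 1 kb of it. Their median score was 55.05, and 13 reached a score of 80.

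Kcnq3, a subunit of the M-current that holds neurons below threshold, was covered to 8.96% in brain, 1.16% in MEF, 0.71% in liver, 0.65% in shGFP, 0.38% in ESC and 0.20% in shSuz12. Of its 25 brain peaks, 23 overlapped no peak of ESC, MEF or liver, but 1 had a score of 80 or more.

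**Figure D3:**
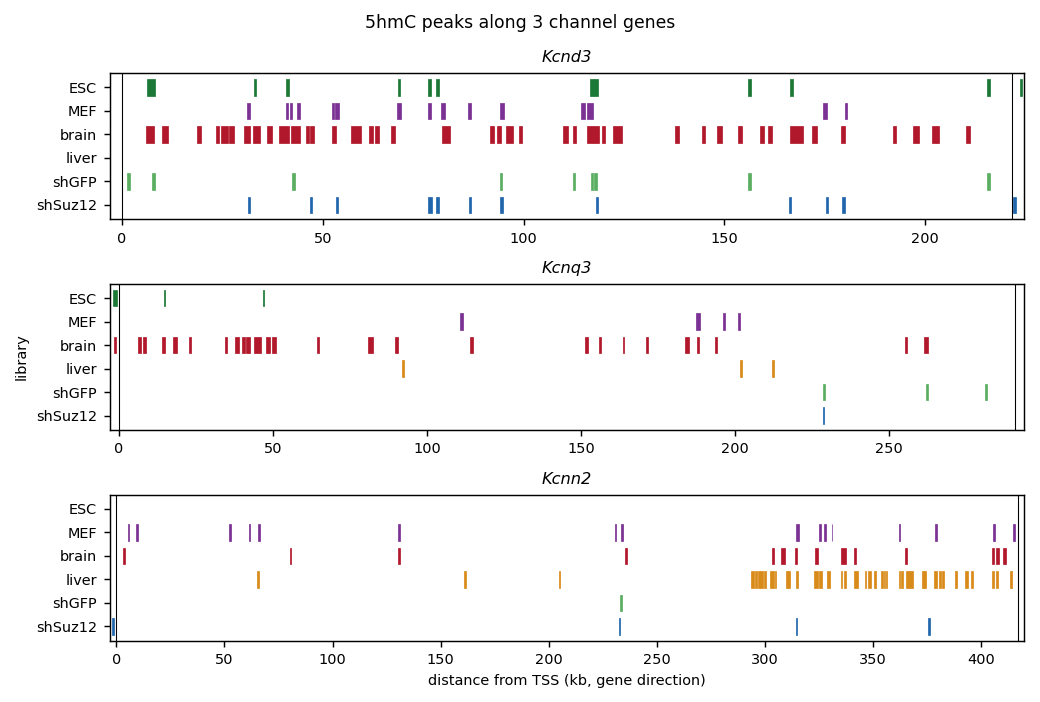
5hmC peaks (bars) along Kcnd3, Kcnq3 and Kcnn2 in each of the 6 libraries, by distance from the TSS in kb in the direction of the gene, with black lines at both ends of the span. Brain has 43 peaks on Kcnd3 and 25 on Kcnq3, and liver has 40 on Kcnn2, mostly towards its 3′ end.

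Of the 8 Shaker-type Kcna genes, 6 sit in 2 clusters of 3 genes each. On chromosome 3, Kcna2, which acts at axons, was covered to 31.6% in brain and 10.4% in ESC and to 0% in MEF and liver, by 1 peak in each case. Kcna10 had 1 brain peak (8.22%) and none elsewhere, while its neighbour Kcna3, a channel of T cells, was covered to 72.7% in MEF and 58.9% in ESC but to 0% in brain and liver. On chromosome 6, Kcna6 was covered to 19.4% in brain, 7.67% in ESC, 6.65% in MEF and 2.94% in liver. Kcna5, a channel of the atrium, had 77.1% in ESC, 28.2% in MEF and 0% in brain, and Kcna1, an axonal channel, had 9.55% in ESC and 0% in the other 3. Outside the clusters, Kcna4 had 15.1% in ESC and 12.4% in brain, and Kcna7 had 44.3% in ESC and 15.0% in liver, each with 0% in the other pair. Neighbours within a cluster thus had different orders of the cell types. The few peaks on these short genes leave each value resting on 1 to 5 peaks.

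Other Kv alpha subunits differed in their order. Kcnc1, of fast-spiking neurons, had 19.1% in brain, 15.8% in ESC, 13.3% in MEF and 0% in liver. Kcnd2, the Kv4.2 relative of Kcnd3, had 4.44% in MEF, 3.50% in brain, 0.31% in ESC and 0% in liver. Kcnh2, which carries the rapid repolarising current of the heart, had 43.2% in ESC, 33.9% in brain, 16.3% in MEF and 0% in liver. None of these 3 genes had a liver peak.

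Among the auxiliary subunits, Kcnip3, a calcium-binding partner of Kv4 channels, was covered to 30.5% in brain, 15.1% in ESC, 3.53% in MEF and 0% in liver. It did not reach the fold, and 10 of its 17 brain peaks overlapped no other cell type. Kcnip4 was nearly bare for its length, with 0.75% in MEF, 0.51% in brain, 0.22% in liver and 0.21% in ESC. Kcnip1 had 16.9% in brain, 13.9% in MEF, 6.99% in ESC and 0% in liver, and the gene Kcnmb1 lies inside its span on the other strand. The 3 brain peaks on Kcnmb1, which covered 30.5% of it against 5.57% in MEF and 0% in ESC and liver, therefore belong to both genes and cannot be told apart. Their highest score was 46.8.

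Of the calcium-activated channels, Kcnma1, the large-conductance pore, had its highest coverage in MEF. It was covered to 12.7% in MEF by 78 peaks, 8.11% in brain by 40, 0.91% in ESC by 6 and 0.12% in liver by 1, and 20 of the brain peaks overlapped no other cell type. Kcnn2, the small-conductance channel of hippocampal neurons, was the longest member with liver on top. It was covered to 10.2% in liver, 3.91% in brain, 2.66% in MEF and 0% in ESC. Of its 40 liver peaks, 37 lay in the 3′ 50% of the span, as did 11 of 14 brain and 10 of 16 MEF peaks. Kcnt2, a sodium-activated channel, was the other gene at least 2 times higher in liver than in ESC, MEF and brain, with 1.97% against 0, 0.89 and 0.69%. These 2 of 107 members (1.87%) stood against 14.3% of all genes.

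Of the inward rectifiers, Kcnj2, the classical channel of heart and muscle, had 1 brain peak over 16.2% of its span and 1 MEF peak over 6.61%, and none in ESC or liver. Its neighbour Kcnj16, which pairs with Kcnj10 in kidney and glia, had 12.9% in brain, 6.65% in MEF, 3.79% in ESC and 0% in liver. Kcnj10 itself, the channel of astrocytes, had 27.5% in brain, 17.9% in ESC, 9.39% in liver and 7.87% in MEF. Kcnk13 among the two-pore domain channels had 25.5% in brain, 8.57% in MEF, 6.38% in ESC and 0% in liver, from 19, 10, 8 and 0 peaks. Kcnk2, a mechanosensitive channel, had 20.5% in brain, 11.7% in MEF, 6.34% in ESC and 0% in liver. For these genes the order was brain first, but for Kcnj10 and Kcnk2 the scaled value was under 2 times that of the next cell type.

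In ESC, MEF and brain the calcium channel alpha1 genes held more peaks than any other family. Cacna1c, the L-type pore of heart and neurons, held 156 MEF, 136 brain, 56 ESC and 12 liver peaks, over 25.5, 30.9, 8.25 and 1.82% of its span, and 32 of the brain peaks overlapped no other cell type. Cacna1e, the R-type pore, was higher in brain by the fold, with 8.16% against 3.36% in MEF, 1.14% in ESC and 0.18% in liver, and 21 of its 26 brain peaks were alone. Cacna1s, the L-type pore of skeletal muscle, had 29.7% in brain, 19.5% in MEF, 15.1% in ESC and 1.56% in liver. Cacna1a, the P/Q-type pore of presynaptic endings, had the opposite order, with 33.5% in ESC, 7.95% in MEF, 7.81% in brain and 1.64% in liver. Cacna1b, the N-type pore, had 10.2% in brain, 9.11% in MEF, 5.26% in ESC and 0.98% in liver. Cacna2d1, an alpha2delta subunit bound by gabapentin, had 6.47% in MEF, 4.04% in brain and 0% in ESC and liver.

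The sodium channel genes differed widely in coverage. Scn1a had 3.19% in brain, 3.03% in ESC, 1.05% in MEF and 0% in liver. Scn2a1 had 3.1% in ESC, 2.71% in MEF, 1.93% in brain and 0% in liver, and Scn9a, of pain-sensing neurons, had 2.95% in MEF, 0.89% in brain and 0% in ESC and liver. These genes belong to a cluster of 5 on chromosome 2, whose 693.5 kb of genes were covered to 3.07% in ESC, 3.0% in MEF, 2.51% in brain and 0.83% in liver. Scn8a, the other main neuronal gene, lies elsewhere and had 32.6% in ESC, 29.9% in brain, 23.2% in MEF and 3.25% in liver. Of the genes of sensory neurons, Scn10a had 16.3% in ESC, 13.6% in MEF, 8.31% in brain and 0% in liver, and Scn11a 13.1, 13.6, 10.6 and 0%. Scn4a of skeletal muscle had 31.0% in ESC, 11.1% in liver, 10.1% in brain and 6.79% in MEF. None of the 9 sodium channel genes that entered was higher in brain by the fold. With 2.81% of all genes called, 9 genes are too few to read this as a difference. Brain covered 7.93% of the summed sodium channel spans, against 12.4% in ESC and 8.11% in MEF. By summed span, brain was the highest of the 4 cell types in each other family except the calcium- or sodium-activated channels and Kcnrg. MEF was highest in the former with 8.43%, and Kcnrg had no peak in the 4 cell types. By the median gene, ESC was above brain in Kv alpha (15.8 against 8.22%), Kv auxiliary (27.5 against 17.1%) and two-pore domain genes (20.2 against 16.7%). It was also above brain in calcium- or sodium-activated (19.9 against 9.16%), sodium (11.8 against 7.68%) and alpha2delta genes (14.6 against 14.4%). Brain was above ESC in inward rectifiers (14.6 against 8.12%) and calcium alpha1 genes (15.3 against 12.8%). Over all genes brain was also highest by summed span, with 14% against 12.9% in liver, 11.9% in MEF and 11.7% in ESC. The median of all genes was also higher in ESC than in brain, at 8.77 against 6.43%. Brain-first sums and ESC-first medians are therefore not particular to the channel families.

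In the opposite direction, 12 of 107 members (11.2%) had a scaled brain value of at most 50% of each other cell type, against 16.3% of all genes. With scores of at least 80 alone the count was 49 of 101, against 51.3%. In all but 1 of the 12, at least 1 of ESC, MEF and liver had no peak either, so that brain was not alone in being low. With a peak required in each of ESC, MEF and liver, 1 member was called (0.935%), against 5.83% of all genes. It was Kcnmb3, a beta subunit of the large-conductance channel, with 28.6% in ESC, 23.5% in MEF, 18.2% in liver and 10.2% in brain. Kcnk3, an acid-sensitive two-pore domain channel, was the only other member with brain below each other cell type in the percentage of its span, with 36.8, 16.6, 21.1 and 11.0%. Cacna1f, the calcium channel of the retina, had 1 ESC peak (2.78%) and none in MEF, brain or liver.

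Liver was low over most members. A rule chosen after the values had been seen, with liver at most 50% of each of ESC, MEF and brain on the same scale, called 78 of 107 members (72.9%, 95% interval 63.4 to 81.0%), against 26.0% of all genes. With a peak required in each of ESC, MEF and brain, 57 members (53.3%) were called against 17.0%. With scores of at least 80 in every list, 63 of 101 members were called against 22.4% of all genes. No liver peak at all was found in 61 of 116 members (52.6%), against 42.1% of all genes, and in 16 of the 37 members over 100 kb (43.2%), against 25.2% of all genes of that length. Of those 37, 2 had no brain peak (5.41% against 10.5%), 7 had no ESC peak (18.9% against 12.2%) and 0 had no MEF peak (0.00% against 5.83%). The pair without a brain peak were Kcnj3, a G protein-gated inward rectifier, and Scn7a, a sodium-sensing channel of glia. Kcng2, Kcnrg and Kcnv1 had no peak in their span in any of the 4 cell types (2.59% of members against 23.1% of all genes).

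By summed span, other genes of excitable cells were covered less than the channel genes in brain, ESC and MEF, and liver was the lowest in them too. The 22 partners of these channels that lie outside the symbol rule (auxiliary subunits of sodium, calcium and Kv4 channels, and the Hcn genes) were covered to 5.02% in brain, 4.88% in ESC, 4.33% in MEF and 2.30% in liver, with 1 gene higher in brain, 2 lower in brain and 13 lower in liver, where the shares of all genes were 2.81, 16.3 and 26.0%. The one higher in brain was Cacng5, with 34.9% in brain against 13.6% in ESC, 3.96% in MEF and 0% in liver. The 46 genes of glutamate and GABA receptors were covered to 4.40% in brain, 3.22% in ESC, 2.94% in MEF and 0.693% in liver. Of the 38 that entered, 6 were higher in brain, 4 lower in brain and 28 lower in liver, against the same 2.81, 16.3 and 26.0% of all genes. As in the channel genes, the count higher in brain is not independent of the low liver coverage.

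Few peaks of the other cell types overlapped a liver peak in channel genes. Of the brain peaks in channel genes, 8.17% overlapped a liver peak, against 45.5% of the brain peaks in all genes, while 41.1 against 49.5% overlapped a MEF peak and 37.8 against 48.8% an ESC peak. In all, 480 of the 1187 brain peaks (40.4%, 95% interval 37.6 to 43.3%) overlapped no peak of another cell type, against 22.1% in all genes. The shares were 43.5 against 28.3% in MEF, 33.1 against 21.4% in ESC and 30.8 against 24.4% in liver. Liver peaks covered 1.88% of the channel spans, against 12.8% of all gene spans. The overlap with liver and the shares of lone peaks in brain, MEF and ESC are therefore not independent of that low coverage. How much of them follows from it was not tested. Within the genes, exons were covered more than introns in each library, with 31.9% of exon and 6.95% of intron bp in ESC, 24.0 and 9.61% in brain, 14.9 and 8.13% in MEF and 5.36 and 1.73% in liver. The ratio was 4.59 in ESC, 2.49 in brain, 1.84 in MEF and 3.1 in liver, against 2.56, 1.65, 1.18 and 1.85 over all genes.

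At the promoters, taken as the TSS ± 1 kb, it was ESC and not brain that stood above the level of all genes. A peak reached the window in 68 of 116 members in ESC (58.6%, 95% interval 49.1 to 67.7%), against 31.9% of all genes. It did so in 34 members in MEF (29.3% against 30.1%), in 28 in brain (24.1%, 16.7 to 33.0%, against 20.0%) and in 14 in liver (12.1%, 6.76 to 19.4%, against 29.4%). The separate shGFP library of ESCs had 61 members (52.6%, 43.1 to 61.9%) against 27.1%, and 53 of the 68 ESC promoters (77.9% against 68.0%) were covered in it. The ESC share was 57.1, 59.4 and 59.2% in members with high, intermediate and low CpG content at the promoter, against 27.2, 41.2 and 30.3% of all genes. The liver share was 11.4, 9.38 and 14.3%, against 40.5, 34.2 and 16.9%. In the class of low CpG content the liver interval of the members, 5.94 to 27.2%, held the value of all genes. With scores of at least 80 the brain share was 4.31% against 5.45% of all genes.

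**Figure D4:**
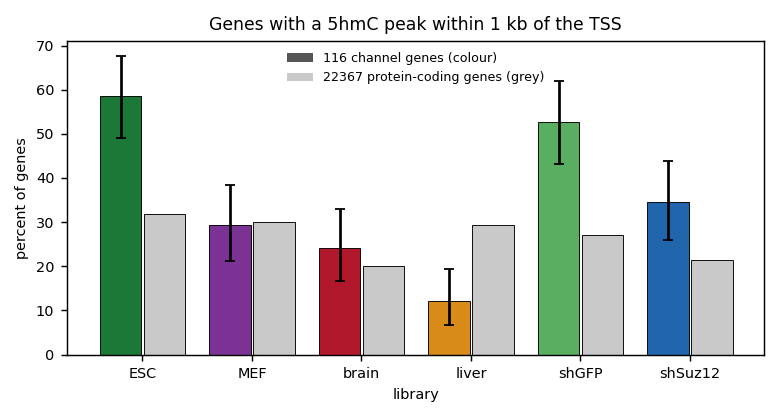
Percent of genes with a 5hmC peak within 1 kb of the TSS in each library, for the 116 channel genes (coloured bars, exact 95% intervals) and 22367 protein-coding genes (grey bars). The ESC and shGFP bars of the channel genes, at 58.6% and 52.6%, stand above the grey bars, and the liver bar at 12.1% below.

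In 26 members (22.4%, against 7.62% of all genes) the window was covered in ESC alone of the 4 cell types. The genes with the largest ESC excess were Kcng1 with 1492 bp, Kcnj5 with 1442 bp, Kcnj11 with 1043 bp, Kcnu1, a channel of sperm, with 966 bp, and Kcnj9, a G protein-gated inward rectifier, with 926 bp, each against 0 bp in MEF, brain and liver. Kcne1, the subunit of the slow repolarising current of the heart, had 1398 bp in ESC, 460 bp in MEF, 234 bp in brain and 0 bp in liver. In shGFP these 6 promoters had 1420, 1159, 1298, 336, 1023 and 1037 bp, so that each of them was covered in both ESC libraries. The sequences of Kcng1, Kcnj5 and Kcnj11 given above come from these peaks.

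In brain alone the window was covered in 4 members (3.45%, against 1.94% of all genes): Cacna1c with 778 bp, Kcnj15, an inward rectifier of kidney, with 264 bp, Kcnk15, a two-pore domain subunit, with 239 bp, and Kcnip4 with 13 bp. Cacna1a had 1030 bp in brain, 635 bp in MEF and 0 bp in ESC and liver, and Cacna1d, the L-type pore of hair cells and pacemaker cells, had 1561 bp in brain, 1192 bp in ESC and 0 bp in MEF and liver. Kcnk5 had 933 bp in brain, 734 bp in liver, 561 bp in MEF and 472 bp in ESC. None of the 10 members that were higher in brain over their span was covered in brain alone at the promoter, and 8 of them had no brain peak there. Over all genes, 20.0% had a brain peak in the window and 1.94% had one in brain alone. The counts for the 10 members are near these shares and do not set them apart. In 37 members (31.9%, against 44.4% of all genes) no cell type had a peak in the window, Kcnd3, Kcna2 and Kcnk13 among them.

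Around the TSS, the members' ESC profile was highest downstream of the start. At the TSS itself 22.4% of members were under an ESC peak, against 11.8% of all genes, and the profile was highest 1500 bp downstream, at 37.1%. The brain profile stood at 6.03% at the TSS, against 4.46%, and was highest 2650 bp downstream, at 19.8%. The liver profile stood at 3.45%, against 5.38%, and its highest point was 8.62%, where that of all genes reached 19.8%. The shGFP profile had 22.4% at the TSS, as in ESC, and its highest value, 31.0%, lay 1450 bp downstream.

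**Figure D5:**
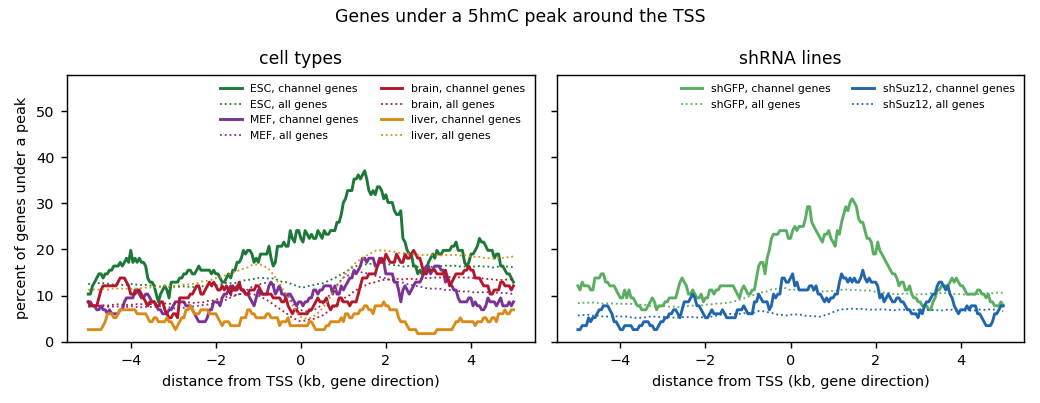
Percent of genes under a 5hmC peak (y axis) by distance from the TSS (x axis, kb, negative upstream) for channel genes (solid) and all protein-coding genes (dotted), in the 4 cell types and the shRNA lines. The solid ESC line reaches 37.1% at 1500 bp and the solid shGFP line 31.0% at 1450 bp, and the solid shSuz12 line stays at or below 15.5%.

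In cells with shSuz12 the spans of the channel genes changed about as often as those of other genes. Peaks covered 4.66% of the members' spans in shGFP and 3.28% in shSuz12, against 7.41 and 5.23% of all gene spans, and the shSuz12 list as a whole covered 83.54 Mb against 121.2 Mb. By the same fold of 2, scaled to the bp of each list, 12 of 91 members (13.2%) were lower in shSuz12, against 13.0% of all genes, and 9 (9.89%) were higher, against 11.9%. Without the scaling 23 members were lower, against 26.6% of all genes. At the promoter, 30 of the 61 members covered in shGFP (49.2%, 95% interval 36.1 to 62.3%) had no peak in shSuz12, against 44.1% of all genes, and 9 of the 55 others gained 1 (16.4%, 7.77 to 28.8%, against 8.57%). The covered share went from 52.6 to 34.5%, and over all genes from 27.1 to 21.4%. The members' profile at the TSS was 22.4% in shGFP and 13.8% in shSuz12, against 11.2 and 5.83% of all genes.

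Short genes with 1 or a few peaks had the largest differences. Kcne1l, a relative of Kcne1, was covered to 87.9% in shGFP and 0% in shSuz12, by 1 peak with a score of 206.6, and to 81.9% in ESC. Kcna5 had 40.8% and 14.5%, Kcnh4 37.0% and 10.9%, and Kcnf1, a modifying Kv subunit, 37.7% and 12.0%, in shGFP and shSuz12. In ESC these 3 genes had 77.1, 43.3 and 32.0%. The largest gains were in Kcnk7, with 19.7% in shGFP and 29.2% in shSuz12, Kcnmb1, with 0% and 8.93%, and Kcnd1, a relative of Kcnd2, with 5.71% and 12.7%. The ESC values of these 3 genes were 52.7, 0 and 18.3%. Among the promoters of the ESC excess, Kcnu1 and Kcnj9 had 0 bp in shSuz12, while Kcng1, Kcnj5, Kcnj11 and Kcne1 had 1017, 1088, 597 and 1089 bp.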

How the data were processed

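GLIB-Seq peak lists of 6 mouse libraries were used, 1 per condition. The authors used Bowtie 0.12.7 for mapping to mm9, kept unique hits and called peaks with MACS 1.4.1 library by library, and the submitters' processing notes also name CASAVA 1.8. The deposited score of each peak was read as the MACS score, that is the negative log10 of the p-value multiplied by 10. Thresholds and controls are not given in the sources used here, and the lowest scores differ, so lists were also compared with weaker peaks, below 80, left out.

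The annotation was GENCODE M1 (NCBIM37, the same assembly as mm9), with the longest entry kept for 3 symbols with a second entry. A gene span runs from the first to the last annotated base. Of the members, 12 overlap another protein-coding gene, whose peaks cannot be told apart. Peaks were assigned to spans by midpoint for the shares of the lists, the overlaps between cell types and the mean CpG counts. Peak counts of single genes and families took any overlap with the span, and coverage was counted in bp. Mitochondrial peaks were left out. CpG classes are those of high, intermediate and low CpG promoters, by CpG ratio and GC content.

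The members, lists and rules were chosen with earlier results of these data known. Genes were named as the 10 with the largest brain excess over ESC, MEF and liver in percent of span and the 5 furthest the other way, the 6 with the largest brain and the 6 with the largest ESC excess at the TSS ± 1 kb, the 5 largest falls and 3 largest rises from shGFP to shSuz12, and a list of well-studied channels. Other genes (Kcna10, Kcnj16, Kcnip1, Kcnj3, Kcnj8, Kcnj4, Kcnn1, Kcnab3, Kcne4, Kcnt2, Scn7a, Scn10a, Scn11a, Kcna4, Kcna7, Kcng2, Kcnrg, Kcnv1, Cacng5 and the cluster on chromosome 2) were named after their values had been seen. Python 3.11.15, numpy 2.4.6, scipy 1.17.1 and matplotlib 3.10.9 were used. The peak share, coverage and fold steps were tested on simulated data. Some of the genes these rules name are not reported here.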

Additional observations from a re-analysis of the deposited data

How the results depend on the processing

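The shares of the whole peak lists and the promoter shares were recomputed under alternatives. So were the counts of members higher or lower in brain, lower in shSuz12 and lower in liver. Other values, among them promoters covered in ESC alone, promoter losses in shSuz12 and lone peaks, were not recomputed in this way. Of the recomputed values, those not printed here moved by less than their 95% interval or by at most 1.5 times. The cause was not tested unless the alternative itself shows it. Raising the score to at least 80 in every list shortens all lists but those of ESC and liver. It gave peak shares of 0.509% in MEF, 0.642% in brain and 0.585% in shSuz12. The promoter shares were then 10.3% in MEF, 4.31% in brain, 38.8% in shGFP and 6.03% in shSuz12 (12, 5.45, 19 and 5.07% of all genes). At that score 49 of 101 members were lower in brain (51.3% of all genes) and 32 of 77 lower in shSuz12 (42.1%). Equal numbers of peaks gave 0.554% of MEF peaks and 19% of promoters in MEF (20.2% of all genes). By bp the shares were 0.629% in ESC, 0.570% in MEF and 0.156% in liver. With members of at most 100 kb alone they were 0.297, 0.166, 0.241, 0.0644, 0.250 and 0.262% in ESC, MEF, brain, liver, shGFP and shSuz12, as fewer bp were counted. Without members on chromosome 8 they were 0.521% in ESC, 0.459% in shGFP and 0.481% in shSuz12. Promoters of 500 bp on each side gave 41.4% in ESC, 20.7% in MEF, 16.4% in brain and 25% in shSuz12 (22.4, 18.4, 11.5 and 13.8% of all genes). Those of 2 kb gave 74.1, 43.1, 38.8 and 50% there (44.9, 42.1, 32.3 and 33.9% of all genes) and 65.5% in shGFP (37.5%). A fold of 1.5 called 17 of 107 members higher in brain (5.41% of all genes), and without scaling 23 of 91 were lower in shSuz12 (26.6%). The requirement of a peak in each other cell type, which left 1 member lower in brain, the liver rule and its alternatives, the families without 1 gene and promoters without chromosome 8 were chosen after seeing the data. No paired analysis was possible because no condition had more than 1 library. Depth is unknown, and 45 of the members with a brain peak had none with a score of 80.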
